A study of Macaca mulatta with 4 samples.

Results

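The genes described here are markers of DNA replication and cell division, read in blood cells of rhesus macaques from a study in which islets grown out of human stem cells were transplanted. They were chosen by name: 38 symbols were looked up, and 37 had a row among the 15354 gene rows of the tables. The symbol with no row was TUBA1B. The members were read in 3 groups: 13 S-phase genes that copy DNA or supply its building blocks, 20 mitotic genes that drive or build the division apparatus, and 4 broad genes (STMN1, TUBB, HMGB2 and H2AFZ) that dividing cells raise but resting cells also use. Together the members held 0.150% of all UMIs (the molecular tags by which RNA molecules were counted).

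A resting lymphocyte in blood holds little of the replication and division machinery. When it is stimulated to divide, it first makes the MCM helicase, PCNA and the nucleotide enzymes, copies its DNA, and then makes the cyclins, kinases and kinetochore proteins that separate the chromosomes. In peripheral blood the cycling cells are therefore few, and they are usually activated T and NK cells or plasmablasts, the dividing precursors of antibody-secreting plasma cells.

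The cells were peripheral blood mononuclear cells (lymphocytes, monocytes and dendritic cells separated from whole blood), profiled by single-cell RNA sequencing with 10x Genomics 5' chemistry. Each group was 1 library. Pre-IS was taken before immunosuppression, Post-IS after immunosuppression and ahead of the transplant, and 4 wpt and 8 wpt were taken 4 and 8 weeks post-transplantation. The labels of the latter 2 give the time only, no label names the drugs, and none says whether the libraries came from the same animal. The question set by the design is how the immune cells of the recipient respond to the human islets. With 1 library per group no difference can be held against a spread between replicates, no test was made, and every interval, given in brackets at the 95% level, covers counting error only.

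Values given as 4 numbers follow the order Pre-IS, Post-IS, 4 wpt, 8 wpt throughout. The libraries held 1928, 603, 1882 and 2580 cells, with a median of 1563, 1168, 3551 and 1877 UMIs per cell. A cell of the 4 wpt library thus had more chances to show a UMI of any gene, and shares of cells are given both as counted and after thinning each cell to 1000 UMIs. Of all barcodes, 25 occurred in more than 1 library. The labels of cell types are those the authors deposited, 9 in all, and 1 of them is "Proliferating NK/T cell", called the proliferating label here. Levels are CPM, the UMIs of a gene per 1000000 UMIs of the cells summed. They are compared between libraries for the same gene, not between genes.

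The members were gathered in a small set of cells. The proliferating label covered 81 cells, 1.16% of all cells and 3.08% of all UMIs. It held a median of 68.7% of the UMIs of a mitotic member, 37.6% of an S-phase member and 23.7% of a broad member. Over the 11191 genes with at least 20 UMIs the median was 2.97%, and 99 of them (0.885%) had over 50% of their UMIs there. How the authors drew the label is not given in the sources used here. If these genes took part in it, their place under it follows from that, so the shares are a description.

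**Figure D1:**
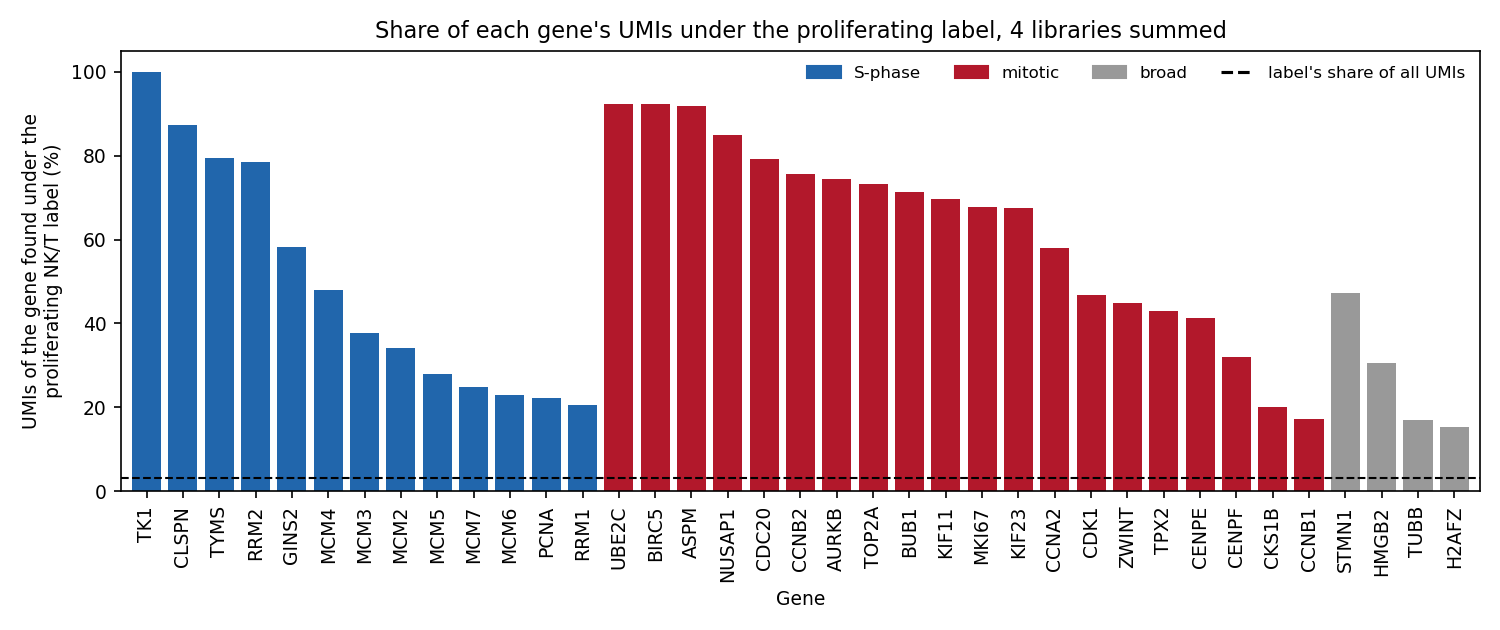
Percent of each gene's UMIs that lay under the proliferating label, with the 4 libraries summed; bars are coloured by role and the dashed line is the label's share of all UMIs (3.08%). Each of the 37 bars stands above the line, from 15.4% for H2AFZ to 100% for TK1.

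Among the S-phase members, 5 of 13 had over 50% of their UMIs under the label. They were TK1, the thymidine salvage kinase, with all of its 48 UMIs, CLSPN, a fork checkpoint adaptor, with 87.2%, and TYMS, thymidylate synthase, with 79.5%. RRM2, the regulated small subunit of ribonucleotide reductase, had 78.6% and GINS2, part of the replicative helicase, 58.1%. The paired large subunit RRM1 stood at the other end with 20.6%, next to PCNA, the sliding clamp of the DNA polymerases, with 22.2%. The MCM subunits, which form 1 ring-shaped helicase, ran from 23.0% for MCM6 to 47.9% for MCM4. The 2 partners of ribonucleotide reductase differed in where they were found: RRM1 had 428 of 539 UMIs outside the label, and RRM2 had 96 of 448.

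Of the mitotic members, 13 of 20 had over 50% of their UMIs under the label. The highest were UBE2C, an enzyme that tags cyclins for destruction, with 92.3% of only 13 UMIs, BIRC5, the survivin subunit of the chromosomal passenger complex, with 92.2% of 90, and ASPM, a spindle pole protein, with 91.9% of 74. MKI67, the nuclear antigen Ki-67 that coats mitotic chromosomes, had 67.8% of 447 UMIs there. TOP2A, the enzyme that untangles DNA strands, had 73.3%, CCNA2 (cyclin A2) 57.9% and CDK1, the mitotic kinase, 46.7%. The lowest were CCNB1 (cyclin B1) with 17.2% and CKS1B, a small CDK-binding subunit, with 106 of its 529 UMIs. CCNB2, the other B-type cyclin on the list, had 75.6%, so the 2 cyclins differed in where they were found.

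Monocytes, which do not normally divide in blood, served to read the background of each gene. Over 1721 cells under the CD14+ and MS4A7+ monocyte labels, MKI67 had 2 UMIs, seen in 0.116% of cells, and TK1, CLSPN, BIRC5, CCNB2, CDC20, KIF11, BUB1 and UBE2C had 0. A count of 0 with a floor of 3 cells still allows a share of up to 0.174%. PCNA had a UMI in 8.25% of these monocytes and CKS1B in 7.21%, whereas TUBB (a beta-tubulin) had one in 37.8% and H2AFZ, a histone variant made throughout the cycle, in 44.6%. STMN1, which destabilises microtubules, was seen in 2.21% of monocytes against 98.8% of cells under the proliferating label. PCNA, CKS1B, TUBB, HMGB2 and H2AFZ are thus present in cells with next to no MKI67, and their UMIs alone do not mark a dividing cell in these data.

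By library the proliferating label covered 8, 2, 41 and 30 cells. These were 0.723% (0.313 to 1.42), 1.59% (0.193 to 5.62), 3.42% (2.46 to 4.61) and 1.61% (1.09 to 2.29) of the T, NK and proliferating cells. The 4 wpt interval lay above those of Pre-IS and 8 wpt, and the Post-IS interval, from 126 cells, overlapped all others. Since the members may have drawn the label, these shares are given as the background for the gene levels.

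Within the label the 2 groups of members were ordered differently over the libraries. The summed S-phase level was 3355 (2857 to 3916), 3187 (1376 to 6280), 2539 (2367 to 2720) and 3198 CPM (2909 to 3508). The summed mitotic level was 2543 (2111 to 3036), 1992 (647 to 4649), 2948 (2762 to 3143) and 3483 CPM (3181 to 3805). The 4 wpt cells were lower in S-phase members than those of Pre-IS and 8 wpt, and the 8 wpt cells higher in mitotic members than those of Pre-IS and 4 wpt, by interval, but single cells weigh in these orders. One 8 wpt cell held 104 of the 489 mitotic UMIs of that library under the label, and single Pre-IS cells held 51 of its 161 S-phase and 62 of its 122 mitotic UMIs. Without the richest cell of each library, a setting chosen after seeing the data, the S-phase level was 2923 (2403 to 3523) in Pre-IS, 2431 (2257 to 2615) in 4 wpt and 3224 CPM (2918 to 3553) in 8 wpt cells, so the intervals of 4 wpt and Pre-IS overlapped. The mitotic level was then 1567 (1196 to 2017), 2719 (2540 to 2909) and 3025 CPM (2731 to 3343), so those of 8 wpt and 4 wpt overlapped. Of the 2 Post-IS cells, 1 held all 8 S-phase UMIs and both together 5 mitotic ones, so 9 of 13 S-phase and 15 of 20 mitotic members were at 0 in that library under this label.

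Gene by gene, the intervals of few members parted between libraries inside the label. No share over all genes is given beside these counts, so they do not set the members apart from other genes. Between 8 wpt and 4 wpt the intervals of 34 of 37 members overlapped, and 3 were higher at 8 wpt. CDK1 had 208, 0, 129 and 299 CPM, and NUSAP1, a spindle microtubule binder, had 167, 398, 176 and 377 CPM. The Post-IS value of NUSAP1 is 1 UMI. STMN1 had 2293, 5179, 2624 and 3575 CPM. Against Pre-IS, which had 8 cells under the label, only broad members parted, and these have the most UMIs of all members. HMGB2, a chromatin-bending protein, went from 1459 to 2347 and 2350 CPM at 4 and 8 wpt, and H2AFZ from 1021 to 1661 and 1702. At 8 wpt STMN1 parted as well.

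The levels of the best-known members show the same overlap. MKI67 had 729 CPM in Pre-IS cells (508 to 1014), no UMI among the 2510 of Post-IS cells, 551 CPM in those of 4 wpt (472 to 638) and 662 in those of 8 wpt (535 to 811). It was seen in 6 of 8, 0 of 2, 35 of 41 and 25 of 30 cells. PCNA had 479, 0, 393 and 456 CPM, and RRM2 854, 1594, 626 and 769 CPM. TOP2A had 146, 398, 264 and 320 CPM, the first 2 from 7 and 1 UMIs.

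S-phase and mitotic members were often found in the same cells, in differing proportion. Of the 81 cells, 44 held more S-phase than mitotic UMIs, 32 held more mitotic ones and 5 held equal numbers. As many as 42 cells had UMIs of at least 5 different members of each group. Another 5 had at least 5 S-phase members with 0 or 1 mitotic member, and 4 the reverse. Divided by the UMIs of the cell, the S-phase and mitotic sums had a Spearman correlation of 0.18 and a Pearson correlation of 0.02 over the 81 cells, which share libraries and in which both sums also follow depth (0.52 and 0.54). One cell of 4 wpt held no S-phase or mitotic UMI at all, and 3 of 81 had fewer than 3 members.

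**Figure D2:**
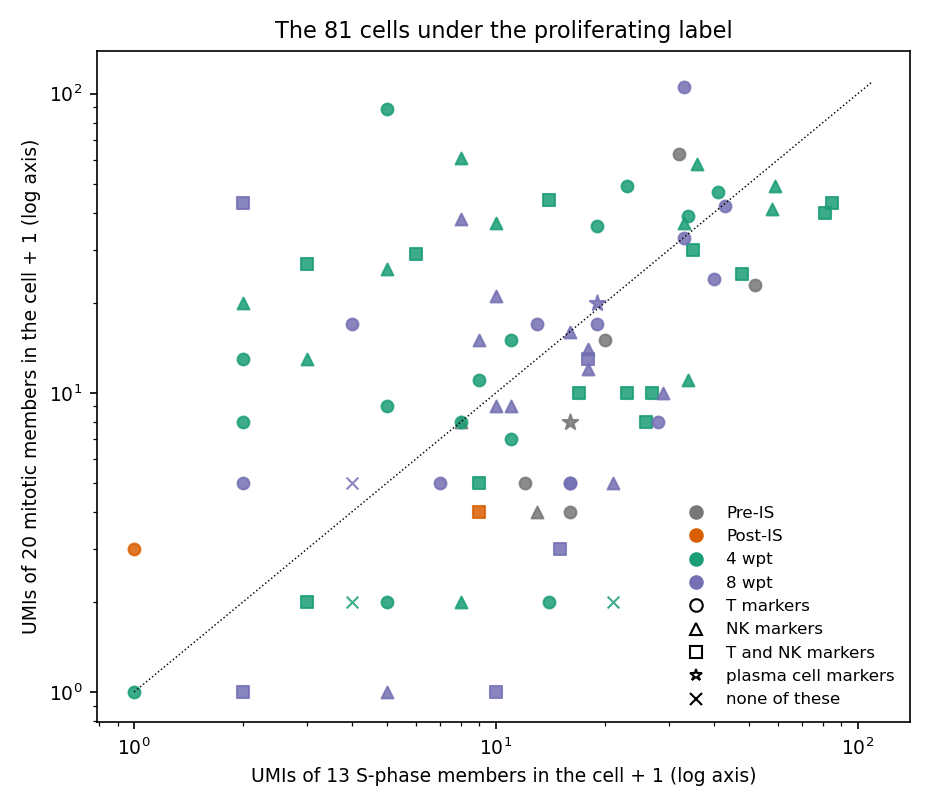
Each point is 1 of the 81 cells under the proliferating label, with its UMIs of the 13 S-phase members (x) and of the 20 mitotic members (y), each plus 1 on log axes; colour is the library, the symbol the lineage markers and the dotted line equal counts. The 44 cells with more S-phase UMIs lie below the line, the 32 with more mitotic UMIs above it, and the 2 plasma-marker cells (stars) near or below it.

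The label was checked against lineage markers, with a cell called marked at 3 or more UMIs of a list. By T cell markers (CD3D, CD3E, CD3G, CD5, CD6 and TRAT1) 33 cells were marked, by NK markers (NCR1, KLRD1, KLRF1 and others) 24, by both lists 19 and by neither 5. Below that threshold the T-marked cells held 5 NK marker UMIs and the NK-marked cells 18 T marker UMIs. Of the 5 cells marked by neither list, 2 carried 16 and 36 UMIs of plasma cell markers such as JCHAIN and MZB1. They had 0 T, NK or cytotoxic UMIs and were 1 cell of Pre-IS and 1 of 8 wpt. Those 2 go against the label's name, and held 33 S-phase and 26 mitotic UMIs of the label's 1425 and 1553. The 33, 24 and 19 cells above bear T or NK markers as the name says. Under the label the 6 B cell markers summed to 2, 0, 5 and 4 UMIs, or 41.7, 0, 15.7 and 28.5 CPM, with 1, 0, 2 and 2 of them detected (CD79A or CD79B) and MS4A1, CD22 and BLK at 0 in each library. The 7 monocyte markers summed to 1, 0, 10 and 3 UMIs, or 20.8, 0, 31.5 and 21.4 CPM, with FCN1 and CSF1R at 0 in each library and CD14 at 0 apart from its 1 UMI in Pre-IS.

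Over all libraries the 24 NK-marked cells had 3434 CPM of S-phase members (3109 to 3784) and 4150 of mitotic ones (3791 to 4533). The 33 T-marked cells had 2404 (2206 to 2615) and 3089 CPM (2864 to 3327). The 19 cells marked by both lists had 2889 (2618 to 3182) and 2296 CPM (2055 to 2558). The NK-marked cells were higher by interval in both sums at 4 wpt alone, with 3243 against 1700 CPM for S-phase and 4553 against 3118 for mitotic members. At 8 wpt both sums had overlapping intervals, the S-phase sum at 3866 (3260 to 4551) in NK-marked and 2926 (2569 to 3319) in T-marked cells and the mitotic sum at 3731 (3137 to 4406) and 3276 (2898 to 3691). In Pre-IS the 2 NK-marked cells stood at 3165 against 3249 CPM for S-phase and 1666 against 2686 for mitotic members, with overlapping intervals. The T-marked cells were also deeper, with a median of 6174 against 4188 UMIs, and the part of depth in this was not tested.

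Because the label sets cycling lymphocytes apart, the libraries were compared over T, NK and proliferating cells pooled. The pooled sets held 1106, 126, 1200 and 1863 cells. Summed S-phase members stood at 221, 201, 339 and 279 CPM. Summed mitotic members stood at 134, 153, 321 and 222 CPM. Both sums were highest at 4 wpt and lay between Pre-IS and 4 wpt at 8 wpt.

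As ratios to Pre-IS, which the 3 comparisons share, the S-phase sum was 1.54-fold at 4 wpt (1.38 to 1.72), 1.26-fold by 8 wpt (1.12 to 1.42) and 0.912-fold in Post-IS (0.620 to 1.30). The mitotic sum was 2.40-fold at 4 wpt (2.10 to 2.76), 1.67-fold by 8 wpt (1.44 to 1.93) and 1.14-fold in Post-IS (0.725 to 1.73). From 4 wpt to 8 wpt the ratios were 0.822 (0.758 to 0.891) and 0.694 (0.635 to 0.757). Counting error treats UMIs as independent, while many came from a few cells: without the cell richest in mitotic UMIs in each library, the mitotic ratio was 3.01 at 4 wpt and 1.93 at 8 wpt. In these pooled sums, more cycling cells and more RNA of these genes per cell cannot be told apart.

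Part of the difference came with the cells under the label. Leaving them out, the S-phase ratio at 4 wpt was 1.27 and the mitotic ratio 1.78, and at 8 wpt the mitotic ratio was 1.29. In the remaining T and NK cells the mitotic members had 68.9 (57.2 to 82.2), 124 (75.7 to 192, from 20 UMIs), 122.7 (112 to 134) and 88.9 CPM (79.2 to 99.5). The 4 wpt interval therefore lay above Pre-IS and 8 wpt with or without the label.

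**Figure D3:**
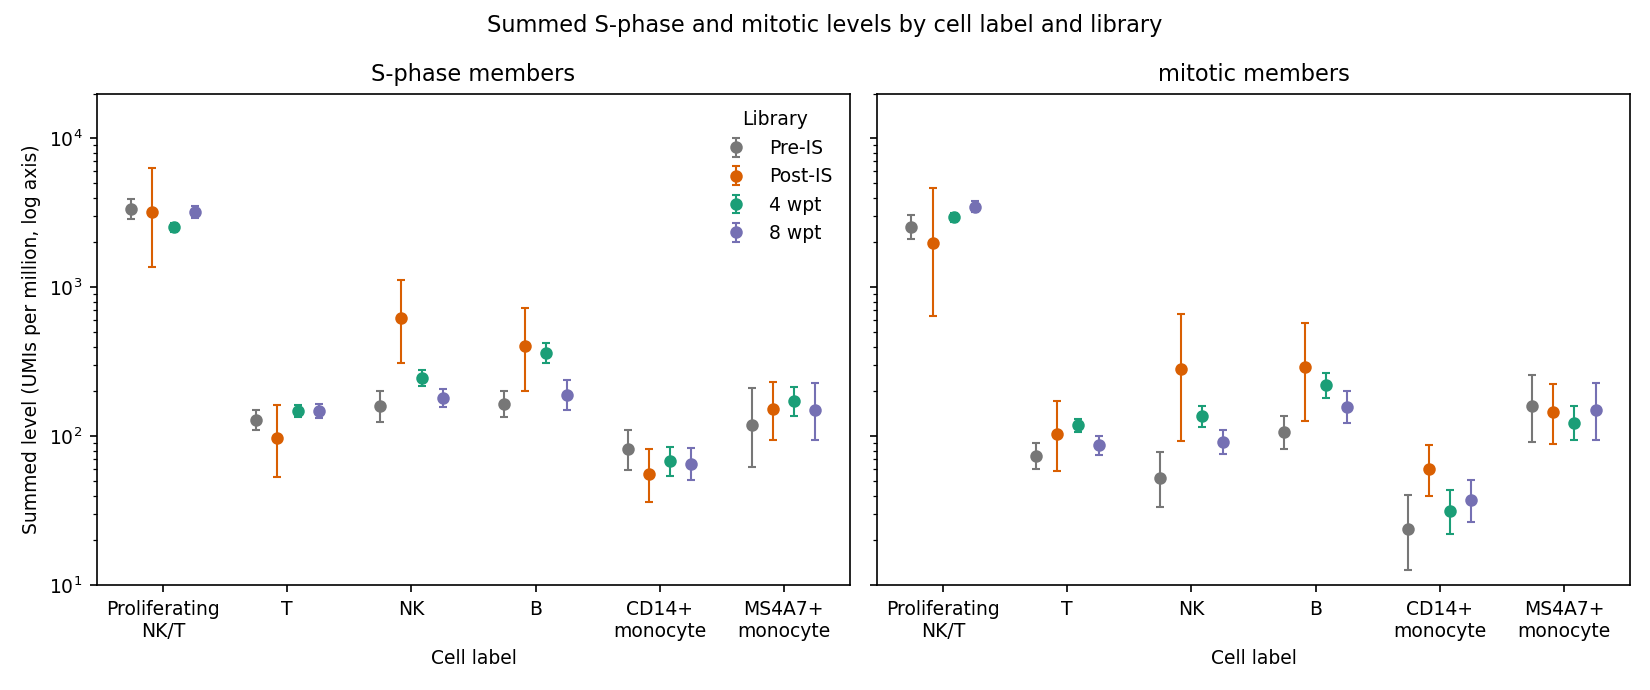
Summed CPM of the 13 S-phase members (left) and 20 mitotic members (right) on a shared log axis, by cell label and library; bars are exact Poisson 95% intervals. The proliferating label stands above all others in each library, and the Post-IS points of NK and B cells rest on 9 and 12 cells.

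Single members were called higher or lower when their level differed by at least 1.5-fold, among genes with at least 20 UMIs over both libraries. A gene near that minimum with few UMIs in 1 library has to differ, so the counts are descriptions. At 4 wpt against Pre-IS, 35 of 37 members passed the minimum, 23 were higher and 0 lower, where 12.6% of 9468 genes were higher and 6.26% lower. By role, 7 of 13 S-phase, 15 of 18 mitotic and 1 of 4 broad members were higher, with median log2 ratios of 0.57, 1.13 and 0.41 against 0.05 over all genes. Among the higher ones, MCM2, MCM3, CLSPN, CCNB1, CENPE, AURKB and KIF11 had ratio intervals that included 1.

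Several of the larger ratios rested on few UMIs in Pre-IS. CDC20, the activator of the anaphase ubiquitin ligase, was 15.8-fold (2.67 to 638), with 1 UMI in Pre-IS. ASPM was 5.05-fold (1.85 to 19.3), TPX2, a spindle assembly factor, 4.45-fold (1.94 to 12.6) and TYMS 4.01-fold (2.31 to 7.53). CDK1, ZWINT and KIF23 were the mitotic members past the minimum that stayed under 1.5-fold, at 1.46, 1.41 and 1.35.

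The named mitotic members showed a shared high point at 4 wpt with some exceptions. MKI67 had 23.4, 6.11, 59.3 and 32.8 CPM, which is 2.53-fold at 4 wpt (1.83 to 3.58), and its Post-IS level rests on 1 UMI. TOP2A had 5.45, 6.11, 23.6 and 14.8 CPM, 4.32-fold at 4 wpt (2.26 to 9.28). CENPF, a kinetochore protein, had 12.0, 36.6, 44.7 and 19.9 CPM, 3.73-fold at 4 wpt (2.40 to 6.08). CCNA2 had 10.4, 0, 20.7 and 16.2 CPM and CKS1B 20.7, 24.4, 33.5 and 31.9. CDK1 had 11.4, 18.3, 16.7 and 20.4 CPM. Of the mitotic members with levels in this paragraph, it alone had its highest level at 8 wpt, though the 4 wpt and 8 wpt intervals overlapped. Among the other mitotic members, CCNB1 (1.21), NUSAP1 (1.13), ZWINT (1.09) and AURKB (1.05) also had 8 wpt over 4 wpt ratios above 1, with intervals that included 1.

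The named S-phase members ranged in their 4 wpt ratio. RRM2 had 23.4, 30.5, 49.6 and 33.3 CPM, 2.11-fold at 4 wpt with a lower bound of 1.52. PCNA had 56.2, 42.7, 67.0 and 71.7 CPM, 1.19-fold at 4 wpt (0.951 to 1.51). RRM1 had 32.7, 18.3, 46.9 and 38.7 CPM, 1.43-fold at 4 wpt (1.07 to 1.94), MCM7 31.6, 18.3, 34.6 and 37.0, and MCM5 19.1, 6.11, 22.0 and 21.0. For PCNA, MCM7 and MCM5 the Pre-IS, 4 wpt and 8 wpt levels had overlapping intervals. By ratio, PCNA at 8 wpt was 1.28-fold that of Pre-IS (1.01 to 1.62), an interval just above 1. It was 1.07-fold that of 4 wpt (0.903 to 1.27). The 8 wpt ratios to Pre-IS of MCM7 and MCM5 were 1.17 (0.852 to 1.62) and 1.10 (0.728 to 1.69).

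At 8 wpt against Pre-IS, 31 members passed the minimum, 15 were higher and 1 was lower, where 8.56% of genes were higher and 5.23% lower. The higher ones were 12 of 15 mitotic and 3 of 12 S-phase members (TYMS, MCM6 and TK1), and the lower one was GINS2, at 0.642-fold (0.281 to 1.503). Among the higher ones, only TOP2A, CDK1, CENPF, NUSAP1, TPX2 and CKS1B had ratio intervals that left out 1. Those of TYMS, MCM6 and TK1 included it. At 8 wpt against 4 wpt, 0 of 35 members were higher and 13 lower, 3 of 13 S-phase and 10 of 18 mitotic, where 5.84% of genes were higher and 7.78% lower. CDC20 had 0.293-fold (0.125 to 0.616), ASPM 0.407-fold (0.216 to 0.726), CENPF 0.445-fold (0.334 to 0.585) and MKI67 0.553-fold (0.441 to 0.689) of its 4 wpt level. Among the lower ones, CLSPN, BIRC5, TPX2 and KIF23 had ratio intervals that included 1.

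**Figure D4:**
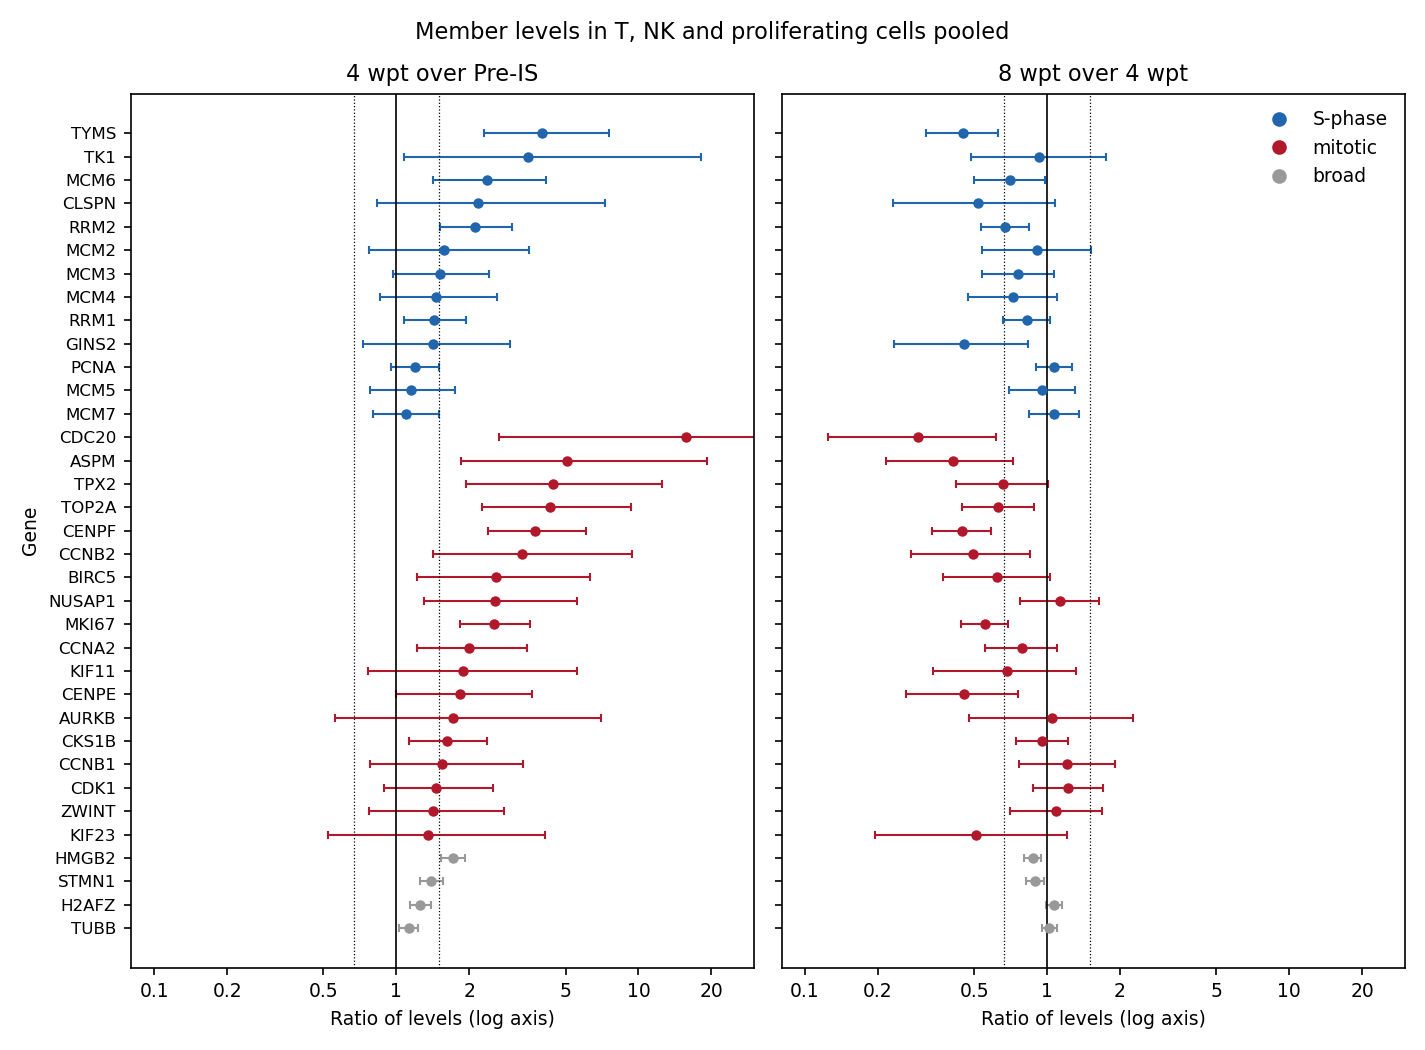
Ratio of each member's level in T, NK and proliferating cells pooled, at 4 wpt over Pre-IS (left) and 8 wpt over 4 wpt (right), on log axes cut at 0.08 and 30; bars are 95% intervals and dotted lines mark 1.5-fold either way. The 35 members stand above 1 on the left, and mitotic members spread from CDK1 and CCNB1 above 1 to CDC20 at 0.293 on the right.

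Post-IS could be compared for few members, since its 126 pooled cells gave 15 of 37 members past the minimum. Of those 3 were higher than in Pre-IS and 5 lower, where 14.8% of genes were higher and 29.9% lower. CDK1, CENPF and STMN1 were the higher ones, at 1.60 (0.306 to 5.36), 3.05 (1.01 to 7.77) and 1.62 (1.21 to 2.13). RRM1, MCM5, MCM7, MKI67 and HMGB2 were the lower ones, from 0.260-fold for MKI67 (0.00645 to 1.53) to 0.666-fold for HMGB2 (0.407 to 1.03). Of these 8 ratios, those of CENPF and STMN1 had intervals that left out 1.

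Cells labelled T cell, outside the proliferating label, still held mitotic UMIs, and more at 4 wpt. Their summed mitotic level was 74.1 (60.3 to 90.1), 104 (58.4 to 172), 118 (107 to 131) and 87.3 CPM (75.5 to 100.4). In MS4A7+ monocytes, which had no MKI67 UMI, that sum was 160, 145, 124 and 151 CPM. It was 0.774-fold at 4 wpt over Pre-IS there (0.439 to 1.44). The height of the sum alone thus does not mark dividing cells. The S-phase level of T cells was 129, 97.4, 149 and 147 CPM with overlapping intervals. At 4 wpt 5 of 19 members past the minimum were higher than in Pre-IS, where 13.3% of genes were: MKI67, CENPF, TPX2, CDK1 and MCM6. None was lower, where 7.15% of genes were. MKI67 had 3.70, 6.96, 20.5 and 5.82 CPM, from 5, 1, 65 and 13 UMIs. This was 5.53-fold at 4 wpt with a lower bound of 2.25.

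The 4 wpt T cells were also the deepest, and shares of positive cells moved with depth. MKI67 was seen in 0.476%, 0.870%, 6.30% and 1.02% of T cells as counted, and in 0.398%, 1.18%, 1.87% and 0.713% after thinning. Both series are highest at 4 wpt. For PCNA the counted shares of 6.42%, 4.35%, 11.9% and 9.11% became 4.65%, 3.53%, 3.63% and 3.83%, which no longer set 4 wpt above the rest. The share in CD14+ monocytes, with median depths of 2058.5, 1196, 3190 and 2853.5 UMIs against 1526, 1257, 3626 and 1810 in T cells, was 0%, 0.304%, 0% and 0.289% for MKI67 and 6.64%, 3.04%, 9.29% and 8.67% for PCNA. After thinning the monocyte shares of PCNA were 2.26%, 2.14%, 2.47% and 1.20%, below those of T cells in each library. MKI67 was seen in T cells at 4 wpt and in no CD14+ monocyte of that library.

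At 8 wpt against Pre-IS, 2 of 16 members were higher in T cells, MCM6 and CDK1, where 9.08% of genes were, and 0 lower, where 5.52% were. At 8 wpt against 4 wpt 5 of 21 were lower, MCM6, MKI67, TOP2A, CENPF and TPX2, where 8.53% of genes were, and 0 higher, where 6.84% were. In Post-IS T cells 1 of 9 was higher (CENPF) and 2 lower (MCM7 and HMGB2), where 14.4% and 28.4% of genes were.

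NK cells showed the mitotic difference at a larger ratio. Their summed mitotic level was 52.7 CPM in Pre-IS (33.4 to 79.1), 136 in 4 wpt (115 to 161) and 92.0 in 8 wpt cells (75.6 to 111), that is 2.59-fold at 4 wpt (1.66 to 4.21) and 1.75-fold at 8 wpt (1.11 to 2.87). The S-phase level was 160, 248 and 182 CPM, 1.54-fold at 4 wpt (1.18 to 2.04). Post-IS held 9 NK cells and was not compared. Whether the NK ratio differs from that of T cells was not tested, and their intervals overlap.

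At 4 wpt 6 of 13 members were higher in NK cells than in Pre-IS, where 17.5% of genes were: MCM3, MCM6, MKI67, CENPF, CKS1B and STMN1. None was lower, where 9.31% of genes were. CENPF had 0 UMIs in Pre-IS NK cells, 28 at 4 wpt and 13 at 8 wpt. Against a floor of 3 counts in the Pre-IS library it was at least 3.88-fold higher at 4 wpt. MKI67 had 6.88, 27.6 and 9.20 CPM, seen in 1.17%, 9.26% and 1.52% of cells as counted and 1.24%, 3.02% and 0.637% after thinning. At 8 wpt 3 of 9 were higher than in Pre-IS (CKS1B, HMGB2 and H2AFZ), where 15.4% of genes were, and 0 lower, where 6.89% were. Against 4 wpt, 6 of 14 were lower, 4 of them MCM subunits (MCM3, MCM5, MCM6 and MCM7) beside MKI67 and CENPF, where 9.08% of genes were. None was higher, where 8.96% were.

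Of the 4 broad members, STMN1 changed direction against Pre-IS once the proliferating cells were left out. Without them the 4 wpt ratios of TUBB, H2AFZ and HMGB2 were 0.920 (0.835 to 1.02), 0.968 (0.867 to 1.08) and 1.12 (0.978 to 1.29), with intervals that included 1. STMN1 was 1.40-fold over Pre-IS at 4 wpt in the pooled cells (1.25 to 1.56) and 0.817-fold (0.709 to 0.942) in T and NK cells without the proliferating label. At 8 wpt the same pair was 1.25 (1.11 to 1.40) and 0.851 (0.735 to 0.986). Its level in T cells was 192, 237, 135 and 166 CPM, 0.705-fold at 4 wpt (0.603 to 0.826). In NK cells it was 89.4, 139 and 96.2 CPM in Pre-IS, 4 wpt and 8 wpt, 1.56-fold at 4 wpt (1.09 to 2.28), so against Pre-IS STMN1 was lower in T and higher in NK cells.

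HMGB2 went from 0.871-fold (0.804 to 0.944) between 4 and 8 wpt in the pooled cells to 1.14-fold (1.03 to 1.27) without the label. STMN1 and HMGB2 were the members whose ratio lay on opposite sides of 1, by interval, with and without the proliferating cells. In T cells HMGB2 had 161, 83.5, 164 and 183 CPM, H2AFZ 270.4, 334, 254 and 307, and TUBB 308, 320.1, 303 and 333. Their Pre-IS and 4 wpt intervals overlapped for all 3.

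B cells had more of both groups at 4 wpt, and part of the S-phase UMIs came from a pair of cells. Their S-phase level was 166, 365 and 191 CPM in Pre-IS, 4 wpt and 8 wpt, 2.20-fold at 4 wpt (1.71 to 2.85). The mitotic level was 107, 222 and 159 CPM, 2.07-fold at 4 wpt (1.502 to 2.88). Of the 176 S-phase UMIs at 4 wpt, 82 lay in 2 of 114 cells, which also carried 42 and 111 UMIs of plasma cell markers. The same 2 cells held 25 of the 40 UMIs of RRM2, which stood at 82.9 CPM against 5.18 in Pre-IS and 4.95 in 8 wpt cells. Cells with at least 10 plasma marker UMIs numbered 9 of 351 in Pre-IS, 7 of 114 at 4 wpt and 11 of 178 at 8 wpt, and held 3, 86 and 9 of the S-phase UMIs. Of the 62, 107 and 64 mitotic UMIs they held 2, 19 and 6. The part of plasma cell markers in the ratio was not tested.

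At 4 wpt 4 of 11 members were higher in B cells than in Pre-IS (PCNA, RRM2, CENPF and STMN1), where 15.8% of genes were, and 0 lower, where 12.4% were. CENPF had 17.3, 80.8 and 37.2 CPM in Pre-IS, 4 wpt and 8 wpt B cells, from 10, 39 and 15 UMIs, and was seen in 2.56%, 19.3% and 7.87% of cells as counted and 1.37%, 5.56% and 2.91% after thinning. MKI67 in the same cells had 1, 12 and 1 UMIs and TOP2A 1, 2 and 2. At 8 wpt 2 of 10 members were higher than in Pre-IS (CENPF and STMN1), where 11.3% of genes were, and 0 lower, where 11.8% were. At 8 wpt against 4 wpt 4 of 11 were lower (PCNA, RRM1, RRM2 and CENPF), where 14.4% of genes were, and 0 higher, where 10.4% were. Naive B cells could be compared at 8 wpt alone, where their S-phase level was 1.03-fold that of Pre-IS (0.591 to 1.82). Of their 5 members past the minimum HMGB2 was lower, where 11% of genes were, and 0 higher, where 12.1% were.

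In CD14+ monocytes the mitotic sum was low, at 23.7, 60.2, 31.5 and 37.5 CPM from 13, 27, 37 and 39 UMIs, of which 7, 13, 17 and 19 were CKS1B. It was 2.54-fold in Post-IS against Pre-IS (1.27 to 5.36). H2AFZ had 188, 321, 286 and 318 CPM, 1.71-fold in Post-IS (1.32 to 2.22). HMGB2 had 113, 192, 169 and 148 CPM, and TUBB 261, 201, 207 and 208 CPM, so Pre-IS was lowest for H2AFZ and HMGB2 and highest for TUBB. Of the members past the minimum, 3 of 5 were higher in Post-IS (CKS1B, HMGB2 and H2AFZ, where 16.6% of genes were) and 1 lower (PCNA, where 13% were). At 4 wpt 2 of 7 (STMN1 and H2AFZ) and at 8 wpt 1 of 6 (H2AFZ) were higher, where 13.2% and 11.8% of genes were, and 0 lower, where 12.4% and 9.45% were. Between 4 and 8 wpt 0 of 8 members passed 1.5-fold, where 10.4% of genes were higher and 9.27% lower. MKI67 had 0, 1, 0 and 1 UMIs in these cells.

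The small MS4A7+ monocyte set, non-dividing cells named for a membrane gene, carried CKS1B at 139.9, 116, 83.9 and 96.1 CPM with overlapping intervals. This was most of their mitotic sum of 160, 145, 124 and 151 CPM. By value that sum stood above the one of T cells in each library, and above the one of NK cells in Pre-IS and 8 wpt. MKI67 had 0 UMIs in all 4 libraries of this monocyte set. Of 5 members past the minimum at 4 wpt, PCNA was higher than in Pre-IS and CKS1B lower, where 22.6% and 14.3% of genes were. H2AFZ reached 563 CPM at 8 wpt against 371 at 4 wpt, the 1 of 5 members higher in that comparison, where 11.3% of genes were, with 0 lower, where 27.7% were. Of 4 members past the minimum against Pre-IS, 0 passed 1.5-fold in Post-IS, where 18.4% of genes were higher and 12.9% lower, or at 8 wpt, where 13% were higher and 16.8% lower.

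Cells that held UMIs of at least 3 different S-phase or mitotic members were counted across all labels. As counted they were 24 of 1928 (1.24%), 7 of 603 (1.16%), 156 of 1882 (8.29%) and 82 of 2580 cells (3.18%). After thinning they were 0.477% (0.206 to 0.938), 0.855% (0.177 to 2.48), 2.26% (1.62 to 3.07) and 1.503% (1.06 to 2.07). Thinning brought the 4 wpt share down most, and it was still above Pre-IS by interval. The thinned 8 wpt share was above Pre-IS as well, and the 4 wpt and 8 wpt intervals overlapped. Of the counted cells, 8, 1, 40 and 29 carried the proliferating label, so 33.3%, 14.3%, 25.6% and 35.4% of them did.

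Outside the label few cells held 3 members once thinned. As counted there were 16, 6, 116 and 53 such cells, and after thinning 1 of 1669, 3 of 350, 10 of 1727 and 10 of 2432. Among monocytes 0 of 331, 0 of 460, 11 of 519 and 6 of 411 held 3 or more as counted, and 0, 0, 1 and 0 after thinning. With a floor of 3 cells, the counts of 0 as counted allow up to 0.906% and 0.652%. In B cells at 4 wpt 21 of 114 (18.4%) held 3 or more as counted and 1 of 108 after thinning.

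**Figure D5:**
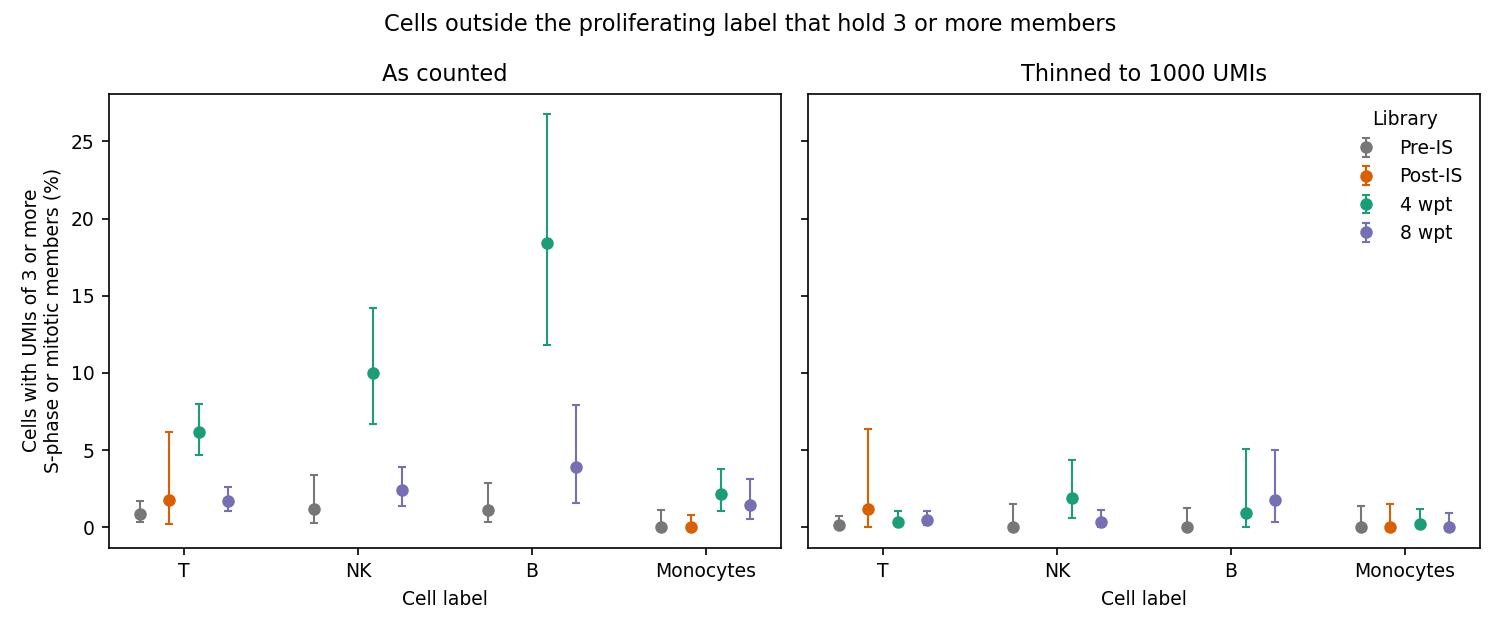
Percent of cells holding UMIs of at least 3 S-phase or mitotic members in T, NK and B cells and monocytes, as counted (left) and thinned to 1000 UMIs per cell (right); colours are libraries, bars are exact Clopper-Pearson 95% intervals, and sets under 50 cells are left out. The 4 wpt points stand highest on the left (18.4% in B cells) and lie under 2% on the right.

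Other genes of the cell cycle, on 6 lists, were read beside the members. Of 43 spindle and kinetochore genes, 29 passed the minimum at 4 wpt in pooled T, NK and proliferating cells, with 19 higher than in Pre-IS and 0 lower. At 8 wpt 12 of 23 were higher and 0 lower. Of all genes in these comparisons 12.6% were higher and 6.26% lower at 4 wpt, and 8.56% and 5.23% at 8 wpt, which holds for the other lists as well. A median of 57.9% of the UMIs of such a gene lay under the proliferating label. Its 2 most abundant genes moved little: BUB3, a checkpoint protein with other roles, was 0.973-fold at 4 wpt (0.858 to 1.11) and PTTG1 (securin) 1.11-fold (0.929 to 1.34).

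Among replication genes beyond the members, of 27 origin and fork genes 7 were higher and 1 (POLA2) lower at 4 wpt, with the single-strand binding subunits RPA3 and RPA1 at 1.15-fold (0.984 to 1.35) and 1.07-fold (0.854 to 1.34). Among nucleotide supply and chromatin assembly genes CHAF1A, CHAF1B, HELLS and UHRF1 were higher, with DUT, which clears dUTP, at 1.05-fold and DNMT1, the maintenance methyltransferase, at 1.02-fold. Of 12 condensin and chromosome structure genes 4 were higher (SMC2, SMC4, NCAPG2 and HMGB3), with HMGB1 at 1.13-fold and HMGN2 at 1.18-fold. Of 13 cyclin, kinase and E2F drivers 5 were higher (CCNE2, E2F2, TFDP1, CDKN3 and CKS2) and E2F3 was lower, with CCND3 (cyclin D3) at 0.894-fold and CDC25B, a CDK-activating phosphatase, at 1.03-fold.

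Genes that hold cells at rest had from 0% to 18.2% of their UMIs under the label, the highest being CDKN2B. Of 18 cell cycle brakes past the minimum at 4 wpt, 2 (CDKN1A and CDKN2B) were higher and 1 (FOXO3) lower, where 12.6% and 6.26% of genes were. In Post-IS 2 of 16 (BTG1 and KLF2) were higher and 3 (E2F4, TOB2 and FOXO1) lower, where 14.8% and 29.9% of genes were. A median of 2.38% of a brake's UMIs lay under the proliferating label, close to the 2.97% of all genes. BTG1, an antiproliferative factor, had 1066, 1948, 983 and 839.8 CPM in the pooled cells. KLF2, a factor of resting T cells, had 445, 751, 439.8 and 699.99 CPM. Both were above 1.5-fold in Post-IS (1.83, 1.62 to 2.06, and 1.69, 1.38 to 2.04), and KLF2 again at 8 wpt (1.57, 1.45 to 1.70).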

How the data were processed

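Single cells of 4 libraries were measured with 10x Genomics 5' chemistry. The authors deposited a raw UMI count per gene and cell, and a cell type per barcode, for each library. Mmul_10, Seurat 3.2.3 and Cell Ranger 3.1.0 are listed, with no roles, per the submitters' processing notes. Filters on cells, doublet removal and the making of the cell types are not given in the sources used here. Members and lists were chosen with earlier results of these data known.

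Counts were summed per library and label (Python 3.11.15, numpy 2.4.6, scipy 1.17.1, pandas 2.3.3) and divided by all UMIs summed. Intervals at the 95% level are exact Poisson for levels, Clopper-Pearson for shares and conditional binomial for ratios. A gene was called past 1.5-fold with at least 20 UMIs over both libraries, in labels with at least 50 cells in both. Cells were thinned at random to 1000 UMIs, leaving out 251 shallower cells of Pre-IS, 252 of Post-IS, 115 of 4 wpt and 118 of 8 wpt. No doublet caller was run, and 50 cells with markers of 2 lineages were left out as an alternative. Scaling by TMM (edgeR 4.0.16 in R 4.3.3) was another. The code was tested on simulated data. Values in all libraries are printed for MKI67, TOP2A, PCNA and the 5 members with most UMIs in each role, with the highest and lowest of the rest, and for each other list its 2 genes with most UMIs. PRIM1, RPA1, DUT, HMGB3 and HMGN2 were matched through gene identifiers. Some genes of the lists are not reported here.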

Additional observations from a re-analysis of the deposited data

Results flagged for a closer look

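The summed broad members (STMN1, TUBB, HMGB2 and H2AFZ) moved in opposite directions between labels at 4 wpt against Pre-IS. The ratio was 1.25 in B cells (1.09 to 1.44) and 1.19 in CD14+ monocytes (1.04 to 1.36), with 0.919 in T cells (0.860 to 0.984). The difference between labels was not tested, since each label has 1 library per group.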

How the results depend on the processing

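Under other settings 162 values stayed within their counting interval or within 1.5 times the count and 80 moved. The Post-IS ratios to Pre-IS, whose intervals include 1, crossed it under some settings: 0.912 for S-phase members became 1.27 with each cell weighted equally and 1.13 with T and NK cells alone, and 1.14 for mitotic members became 0.955 over all labelled cells and 0.954 at the lowest with 1 member left out. With T and NK cells alone, the 4 wpt over Pre-IS ratio was 1.27 for S-phase and 1.78 for mitotic members, the mitotic ratio was 1.29 for 8 wpt and 1.80 for Post-IS, and the S-phase ratio of 8 wpt over 4 wpt was 0.918. That last ratio was 0.905 with each cell weighted equally. Thinning gave a mitotic ratio of 1.73 for Post-IS. Leaving out the cell richest in mitotic UMIs in each library, a setting chosen after seeing the data, gave 3.01 at 4 wpt and 1.93 at 8 wpt. Counts of members past 1.5-fold depended on how many were measured. In T cells against Pre-IS a minimum of 50 UMIs left 0 higher and 1 lower in Post-IS, 3 higher at 4 wpt and 0 at 8 wpt, and 3 lower from 4 to 8 wpt. A minimum of 1 UMI gave 9 and 15, 12 and 2, 9 and 5, and 1 and 13 (higher and lower, in that order of comparisons). Thinning left 1 lower in Post-IS, 3 higher and 1 lower at 4 wpt, 0 higher at 8 wpt, and 1 higher and 3 lower between them, and a fold of 2 left 1 lower in Post-IS and 3 lower from 4 to 8 wpt. In NK cells a minimum of 50 left 1 higher at 4 wpt and 2 lower from 4 to 8 wpt, a minimum of 1 gave 22 and 2, 15 and 3, and 2 and 19, a fold of 2 left 3 higher, 0 higher and 2 lower, and thinning 2 higher, 5 higher and 1 lower. In the pooled cells Post-IS had 1 higher and 3 lower with a minimum of 50, 9 and 14 with 1, 1 and 2 at a fold of 2 and 1 and 1 when thinned. At 4 wpt 14 were higher at a fold of 2 and 7 of 16 when thinned. At 8 wpt 5 and 7 of 18 were higher, and 0 lower under these settings and a minimum of 50. From 4 to 8 wpt 7 were lower at a fold of 2, and 7 lower and 1 higher of 23 when thinned. Cells with 2 or more members made up 5.13%, 3.32%, 20.2% and 10% of the libraries. Those with 4 or more were 0.519% in Pre-IS, 5.05% at 4 wpt and 1.67% at 8 wpt, and thinned cells with 3 or more 0.477%, 2.26% and 1.5%. Apart from the number of genes, cells or UMIs that a setting leaves, the cause of these moves was not tested. No paired analysis was possible because each group is 1 library, and no replicate could be left out for the same reason. Post-IS had 126 T, NK and proliferating cells and a median of 1168 UMIs per cell, which limit its values.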
